A study of Mus musculus with 45 samples.

Results

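Surface ectoderm of the frontonasal prominence was compared with surface ectoderm of the mandibular prominence in mouse embryos at E12.5, an embryonic age in days. Each side was measured on 3 arrays, which are 6 of the 45 arrays in a series on the developing face. The arrays were chosen by the prominence, tissue layer and age in their titles, and every probe set on them was used. All groups were wild-type embryos of the inbred strain C57BL6/J, with no treatment and no engineered allele. Each array held RNA of a separate pool of several embryos, with the ectoderm peeled from the mesenchyme after digestion with the protease Dispase II. The same prominences were set beside them in ectoderm at E11.5 and in mesenchyme at E12.5, with 3 arrays per group, as was the maxillary ectoderm at E12.5. Affymetrix Mouse Gene 1.0 ST arrays gave a log2 signal per probe set, which can be compared between arrays for one gene but not between genes. These are bulk samples, so fewer cells of a type and less RNA per cell cannot be told apart.

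The frontonasal prominence forms the forehead and nose, and the mandibular prominence forms the lower jaw. Their ectoderm becomes skin, the lining of the mouth and the tooth-forming epithelium, and at the frontonasal side the nasal pits give rise to the olfactory epithelium. The ectoderm also sends WNT, BMP, FGF and hedgehog signals to the neural crest mesenchyme under it. Melanoblasts, the pigment cell precursors that leave the neural crest, migrate under and then into the ectoderm.

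Both tissues carried the defining markers of epithelium. Cdh1, which encodes E-cadherin, read 10.72, 10.66 and 10.51 in frontonasal ectoderm and 10.64, 10.69 and 10.69 in mandibular ectoderm, and the groups overlapped. The list of 32 facial mesenchyme markers had mean log2 signals of 7.14 to 7.58 in frontonasal and 6.82 to 7.35 in mandibular ectoderm, against 9.26 to 9.36 in frontonasal mesenchyme. Only Meox2 and Tbx18 of that list were undetected on all 6 arrays. Frontonasal array 3 stood apart. Its signals correlated with the other frontonasal arrays at 0.952 to 0.954 across probe sets, while those correlated with each other at 0.994, and its residual SD of 0.380 was the highest of the 45 arrays. Immediate-early and heat shock genes, which respond within minutes to handling, were high on every array numbered 3 in E12.5 ectoderm. The mean of 22 such genes was 8.42 on frontonasal array 3, 8.48 on mandibular array 3 and 8.41 on maxillary array 3, against 7.16 to 7.61 on the other 6 arrays of these groups. Results are therefore also given without frontonasal array 3. That keeps mandibular array 3 in the comparison, so some are given without both arrays numbered 3 as well. The replicate numbers were treated as pairs, though the array titles give a replicate number and no pairing. Counts are therefore also given from a paired fit, which used the 6 arrays alone with the replicate number as a block. That fit is called the block below.

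Of 14472 probe sets tested with limma, 2112 (14.6%) differed between frontonasal and mandibular ectoderm at an adjusted p under 0.05. The higher ones in frontonasal ectoderm numbered 738 (5.1%) and the lower ones 1374 (9.49%). Without frontonasal array 3 the total fell to 1017, of which 916 were among the 2112, and in the paired fit it was 358, of which 343 were. A fit of the 6 arrays alone without the block gave 169 calls, and the block over all 45 arrays gave 2057. Fits of the 6 arrays have fewer arrays and also take the spread from these groups alone. Residual SDs there were 0.211, 0.221 and 0.380 on the frontonasal and 0.138, 0.142 and 0.173 on the mandibular arrays. Why the counts differ was not tested. Centring each array on its median, which removes a frontonasal excess of 0.08 log2, moved the higher share of calls from 34.9% to 21.1%, and a further quantile normalization moved it to 39.2%. At least 2-fold differences were steadier: 55 probe sets were higher (0.38%) and 98 lower (0.677%). Of the 55, 51 were still called without frontonasal array 3 and 48 with the block, and of the 98, 89 and 94 were.

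**Figure D1:**
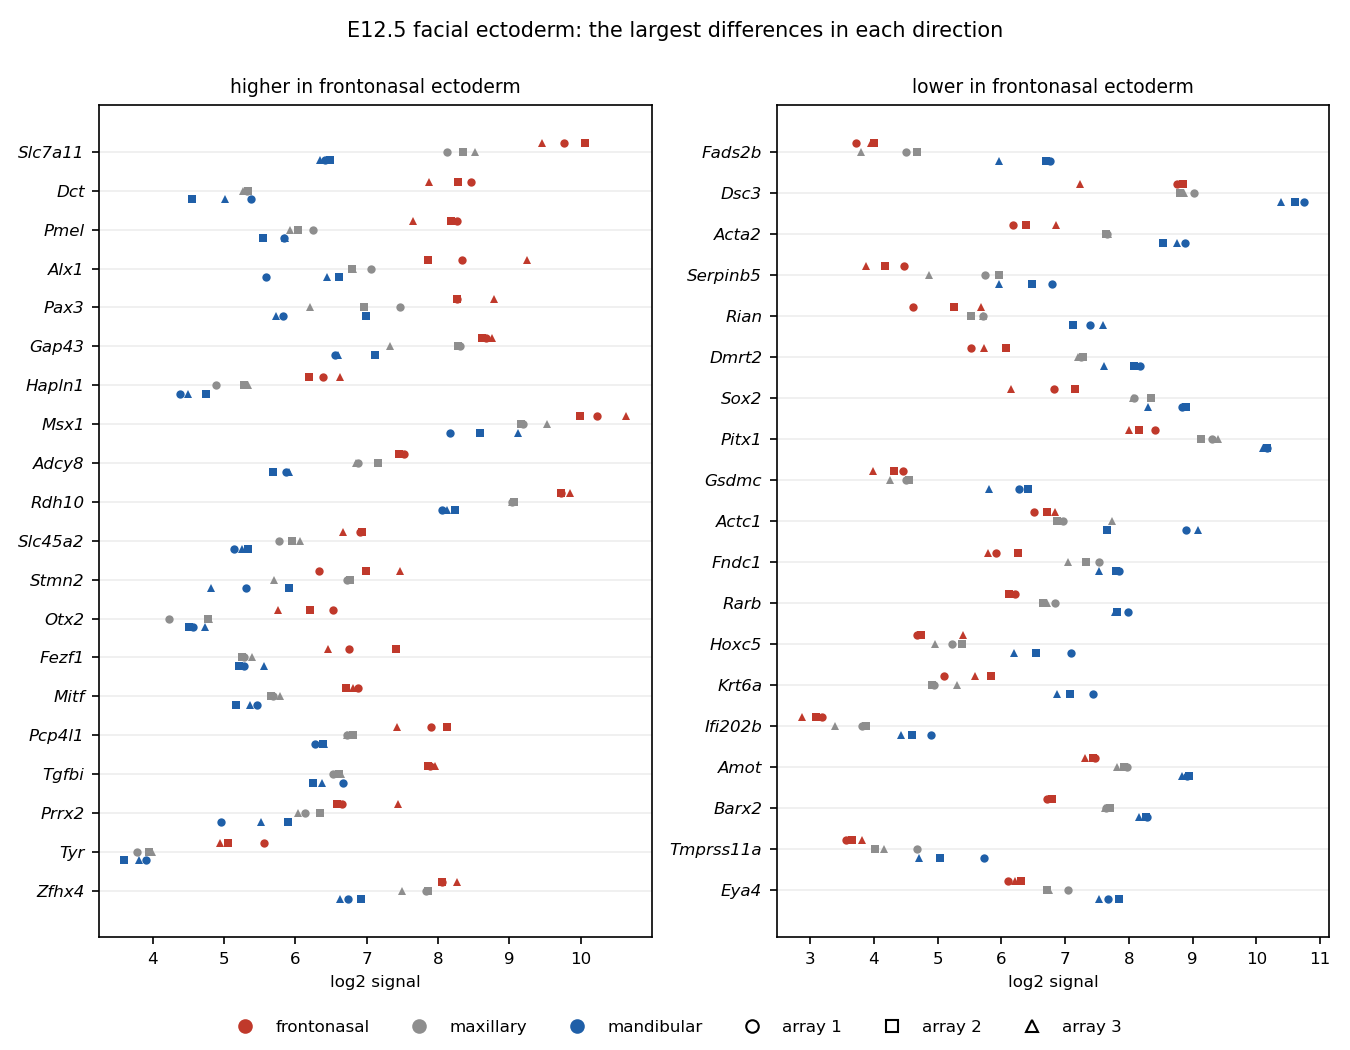
Log2 signal (x axis) of the 20 named genes most higher and 19 of the 20 most lower in frontonasal than mandibular ectoderm at E12.5, 1 symbol per array, with maxillary ectoderm in grey. Genes were chosen for groups that do not overlap, so the gap between red and blue is part of the choice; Slc7a11 has the widest gap, at 3.35 log2.

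The largest difference toward the frontonasal side lay in genes of pigment cells. Slc7a11, the cystine importer whose loss dilutes coat colour in mice, read 9.77, 10.06 and 9.46 in frontonasal ectoderm and 6.41, 6.49 and 6.34 in mandibular ectoderm. All 3 frontonasal arrays were above all mandibular ones, as the choice of the named genes required, and the difference was 3.35 ± 0.16 (SE; 10.2-fold, adjusted p = 3.34e-17 in limma). Dct, the melanin enzyme dopachrome tautomerase and a classical melanoblast marker, read 8.46, 8.28 and 7.87 against 5.37, 4.55 and 5.01. It was 9.36-fold higher, with a difference of 3.23 ± 0.17 (adjusted p = 3.22e-16). Pmel, which builds the fibrils of the melanosome, read 8.27, 8.18 and 7.65 against 5.84, 5.54 and 5.85. Its difference was 2.29 ± 0.14 (adjusted p = 3.02e-14).

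The regulator and the first enzyme of the pathway followed the same order. Mitf, the master transcription factor of melanocytes, read 6.87, 6.71 and 6.81 in frontonasal and 5.46, 5.16 and 5.36 in mandibular ectoderm, a difference of 1.47 ± 0.12 (adjusted p = 8.39e-12). Tyr, which encodes tyrosinase, read 5.56, 5.06 and 4.94 against 3.91, 3.6 and 3.80, a difference of 1.42 ± 0.14 (adjusted p = 1.47e-09). Slc45a2, a melanosome transporter, differed by 1.59 ± 0.14, Ednrb, the endothelin receptor that melanoblasts need, by 1.18 ± 0.16, and Mlana by 0.92 ± 0.15. All of these remained called without frontonasal array 3 and with the block. Tyrp1, a late melanin enzyme, passed detection on all 3 frontonasal arrays and on 0 of the 3 mandibular ones, and was at least 1.56-fold higher (adjusted p = 0.00154), but was not called with the block (adjusted p = 0.0622).

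Of 17 tested genes in the glia and melanocyte list, 10 were higher in frontonasal ectoderm and 0 lower, against 6.79% higher and 11.7% lower among 8590 symbols with 1 probe set each. The list median was 0.63 log2, beside 0.01 over all symbols. Without frontonasal array 3 the higher members numbered 9, and with the block 7, where 4.05% and 1.22% of all symbols were higher. Maxillary ectoderm sat near the mandibular level for Dct, at 5.32, 5.33 and 5.27, and for Pmel, at 6.25, 6.04 and 5.92. For Slc7a11 it was intermediate, at 8.12, 8.35 and 8.52. In ectoderm of the day before, Dct had read 4.70, 5.21 and 4.60 on the frontonasal side and 4.33, 4.31 and 4.65 on the mandibular side. The frontonasal excess of Dct was therefore 2.82 ± 0.24 larger at E12.5 than at E11.5 (adjusted p = 3.03e-10), and that of Mitf 1.70 ± 0.17 larger (adjusted p = 3.97e-09). In mesenchyme at E12.5 Dct read 4.39 to 4.67 on the frontonasal and 4.55 to 4.79 on the mandibular side, and the ectoderm difference exceeded the mesenchyme difference by 3.34 ± 0.24.

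**Figure D2:**
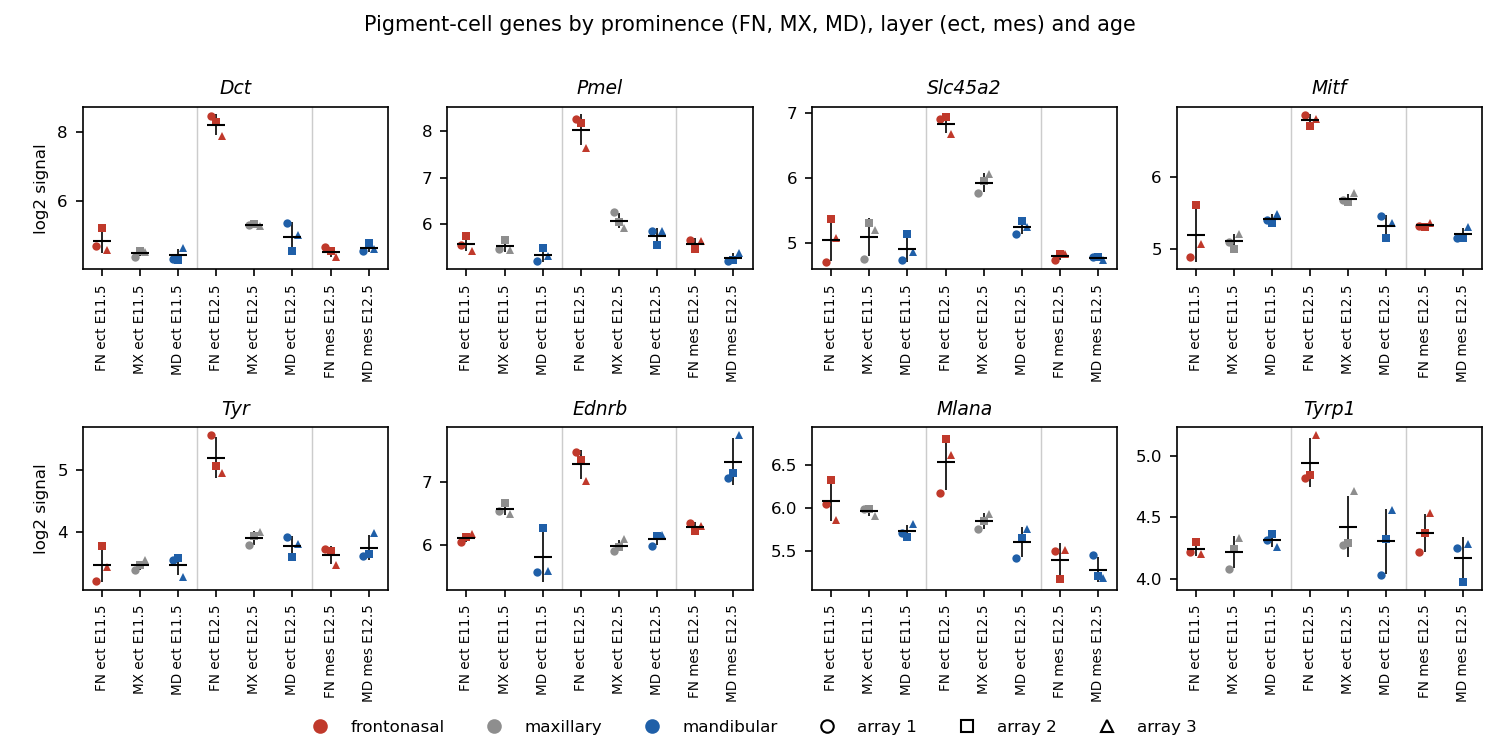
Log2 signal (y axis) of 8 genes of the glia and melanocyte list, for frontonasal (FN), maxillary (MX) and mandibular (MD) tissue of ectoderm (ect) or mesenchyme (mes); symbols are single arrays, dashes the mean of 3 arrays and lines the SD. Frontonasal ectoderm at E12.5 has the highest mean of the ectoderm groups in each panel, as for Dct at 7.87 to 8.46, and Ednrb is as high in mandibular mesenchyme, at 7.06 to 7.74.

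The promoters of 9 pigment-related genes (Dct, Pmel, Slc45a2, Mitf, Tyr, Ednrb, Mlana, Tyrp1 and Slc7a11) were looked up because all were called higher in frontonasal ectoderm. Of these, 6 had a RefSeq window of 250 bases before a transcript start. MITF binds E-box letters such as CATGTG, whose other strand reads CACATG. Dct, Tyr, Tyrp1 and Slc7a11 held these letters in that window, and Mitf and Ednrb did not. Among all symbols with windows, 3742 of 27025 (13.8%) held them, so a match is a description and not evidence of binding. The windows follow 5′ to 3′ on the strand of the gene in build GRCm38.p6, with the matched letters in capitals. They lie at chr14:118052247-118052496 (minus strand) for Dct, chr7:87493513-87493762 (minus) for Tyr, chr4:80833963-80834212 (plus) for Tyrp1 and chr3:50443614-50443863 (minus) for Slc7a11.
Dct: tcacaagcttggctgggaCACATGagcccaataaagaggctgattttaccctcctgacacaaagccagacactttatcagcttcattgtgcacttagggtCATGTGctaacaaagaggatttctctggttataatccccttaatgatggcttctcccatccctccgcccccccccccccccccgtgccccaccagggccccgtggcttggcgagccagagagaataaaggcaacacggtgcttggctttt
Tyr: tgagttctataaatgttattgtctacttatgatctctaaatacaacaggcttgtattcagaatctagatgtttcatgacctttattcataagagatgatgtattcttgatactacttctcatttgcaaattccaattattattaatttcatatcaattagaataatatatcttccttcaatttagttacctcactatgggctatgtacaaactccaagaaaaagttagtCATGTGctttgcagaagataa
Tyrp1: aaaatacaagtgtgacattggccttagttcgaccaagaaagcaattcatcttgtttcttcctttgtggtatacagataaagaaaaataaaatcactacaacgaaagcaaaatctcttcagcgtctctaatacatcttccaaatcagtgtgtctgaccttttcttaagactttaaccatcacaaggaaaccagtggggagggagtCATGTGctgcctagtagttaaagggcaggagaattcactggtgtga
Slc7a11: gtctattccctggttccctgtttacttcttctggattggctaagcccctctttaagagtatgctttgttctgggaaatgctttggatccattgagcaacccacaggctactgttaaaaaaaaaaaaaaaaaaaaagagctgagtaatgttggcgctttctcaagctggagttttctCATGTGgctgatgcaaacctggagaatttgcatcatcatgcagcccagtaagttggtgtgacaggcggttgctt
The first matched base lay at -232 and -150 in Dct, -21 in Tyr, -46 in Tyrp1 and -74 in Slc7a11, counted from the transcript start.

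Some homeobox genes of the upper and middle face, and some mesenchymal genes, were also higher on the frontonasal side. Alx1, a homeobox gene of frontonasal mesenchyme needed for the nose and midface in mice, read 8.34, 7.86 and 9.25 in frontonasal and 5.59, 6.61 and 6.44 in mandibular ectoderm. The difference was 2.27 ± 0.30 (adjusted p = 9.48e-07), or 1.89 without frontonasal array 3. Pax3, a paired-box gene of neural crest and its melanoblasts, read 8.27, 8.27 and 8.78 against 5.82, 6.99 and 5.73, a difference of 2.26 ± 0.26 (adjusted p = 6.28e-08). Msx1, a BMP-responsive homeobox gene of face and teeth, read 10.22, 9.99 and 10.64 against 8.17, 8.59 and 9.12. It was higher by 1.66 ± 0.15 (adjusted p = 4.58e-10), whereas in mesenchyme its levels were 10.1 to 10.2 on the frontonasal and 9.94 to 10.1 on the mandibular side.

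Of 13 midface homeobox genes 5 were higher and 2 lower in frontonasal ectoderm, against 6.79% higher and 11.7% lower among all symbols, and with the block 4 and 1. Alx4 was higher by 1.09 ± 0.23 and Pax7 by 0.77 ± 0.14, while Meis1, a cofactor of Hox proteins, was lower by 1.03 (log2 difference -1.03 ± 0.13). Among 32 facial mesenchyme markers 7 were higher and 3 lower and 22 were not called, beside the same 6.79% and 11.7% of all symbols. Without frontonasal array 3 the counts were 4 and 1, against 4.05% higher and 5.15% lower among all symbols. With the block they were 3 and 1, against 1.22% and 1.92%. Alx1 and Prrx2 are themselves mesenchymal genes. Mandibular array 2 was the mandibular array with the highest mesenchyme mean, 7.35 against 6.82 and 6.84. Twist1, a defining mesenchymal gene, read 8.41, 8.58 and 9.44 in frontonasal and 7.82, 8.79 and 7.60 in mandibular ectoderm, so its groups overlapped (adjusted p = 0.137). Prrx2 was higher by 1.44 ± 0.30 (adjusted p = 0.000977). The part of residual mesenchyme in these differences was not tested. Endothelial genes (5 of 21) and macrophage and leukocyte genes (4 of 17) were higher, against 6.79% of all symbols. Both lists had 0 members called once frontonasal array 3 was left out, and 0 with the block.

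In ectoderm, olfactory and forebrain regulators differed less at E12.5 than a day earlier. Otx2, a homeobox gene of the anterior head, read 6.52, 6.2 and 5.76 in frontonasal ectoderm and was undetected on the mandibular arrays, at 4.56, 4.51 and 4.73. It was at least 2.95-fold higher (adjusted p = 1.59e-05). Fezf1, a zinc-finger gene of olfactory development, read 6.75, 7.41 and 6.45 against 5.28, 5.21 and 5.56, a difference of 1.52 ± 0.18 (adjusted p = 1.54e-07). At E11.5 frontonasal ectoderm had stood at 9.01, 7.46 and 8.43 for Otx2 and at 9.42, 8.58 and 9.09 for Fezf1. The test of the change between the ages gave -2.02 ± 0.34 for Otx2 (adjusted p = 0.000115) and -2.51 ± 0.26 for Fezf1 (adjusted p = 1.55e-08). With Otx2 undetected on the mandibular side at E12.5, its value is not an exact size.

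Of 24 genes in this list, 5 were higher and 1 lower in ectoderm at E12.5 (3 and 1 with the block). Among all symbols 6.79% were higher and 11.7% lower (1.22% and 1.92% with the block). At E11.5 the counts were 17 higher and 0 lower, where 7.74% of symbols were higher and 4.21% lower. In the test of the change, 13 of the 24 fell, against 5.02% of all symbols. The neuronal list behaved alike, with 4 of 27 higher and 4 lower at E12.5 (2 and 1 with the block), 23 higher at E11.5 and 15 falling between the ages. Gap43, a growth cone protein, was an exception that stayed higher, at 8.67, 8.62 and 8.75 against 6.56, 7.12 and 6.60 (difference 1.92 ± 0.23, adjusted p = 8.72e-08). Stmn2, a microtubule regulator of neurons, was higher by 1.58 ± 0.38 (adjusted p = 0.00395), but was not called when both arrays numbered 3 were left out (1.05, adjusted p = 0.203). Dcx, a microtubule protein of migrating neurons, was lower, at 6.04 ± 0.41 (SD, n = 3) against 7.31 ± 0.14. In mesenchyme at E12.5, 15 of the 24 regulators and 16 of the 27 neuronal genes were higher, and 0 and 2 lower. There 12.0% of all symbols were higher and 11.1% lower. The neuronal list had mean log2 signals of 7.38 to 7.53 in frontonasal mesenchyme and 5.88 to 6.16 in frontonasal ectoderm at E12.5.

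The frontonasal excess also fell between the ages in Aldh1a3, which makes retinoic acid, and in Sult1e1, an oestrogen sulfotransferase. Aldh1a3 in frontonasal ectoderm went from 10.34, 9.15 and 10.01 at E11.5 to 6.29, 6.35 and 6.48 at E12.5, while mandibular ectoderm read 5.87 to 6.12 on all arrays of both ages. The frontonasal excess shrank by -3.50 ± 0.22 log2 (adjusted p = 3.00e-13), and at E12.5 the difference of 0.39 ± 0.16 did not pass (adjusted p = 0.0914). Sult1e1 was undetected on all 6 arrays at E12.5. It had read 6.91, 5.74 and 6.22 in frontonasal ectoderm at E11.5 and read 7.48, 7.62 and 7.83 in frontonasal mesenchyme at E12.5. The neuronal RNA-binding gene Elavl4 did likewise, with frontonasal means of 7.38 ± 0.54 in ectoderm at E11.5, 4.60 ± 0.20 in ectoderm at E12.5 and 7.64 ± 0.26 in mesenchyme at E12.5 (SD, n = 3 each).

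Frontonasal mesenchyme at E12.5 also carried epithelial genes at higher levels than mandibular mesenchyme. Epcam, an epithelial adhesion gene, read 8.55, 8.75 and 8.81 there against 5.64, 5.94 and 6.0 in mandibular mesenchyme, while the ectoderm of both prominences read 9.42 to 9.74. Of 46 epithelial junction and splicing genes, 33 were higher in frontonasal than mandibular mesenchyme (background 12.0%), against 1 higher and 6 lower in ectoderm at E12.5. Their mean log2 signal was 6.83 to 6.98 in frontonasal and 5.76 to 5.92 in mandibular mesenchyme. Sox2, a stem cell and sensory placode factor, ran in opposite directions in the layers. In ectoderm it read 6.82, 7.15 and 6.15 on the frontonasal side and 8.83, 8.90 and 8.30 on the mandibular side, and in mesenchyme 8.46, 8.51 and 8.73 against 4.69, 5.35 and 5.28. The ectoderm difference lay 5.43 below that of mesenchyme (-5.43 ± 0.36, adjusted p = 8.33e-14). How far epithelium that stayed with the frontonasal mesenchyme enters these values was not tested.

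**Figure D3:**
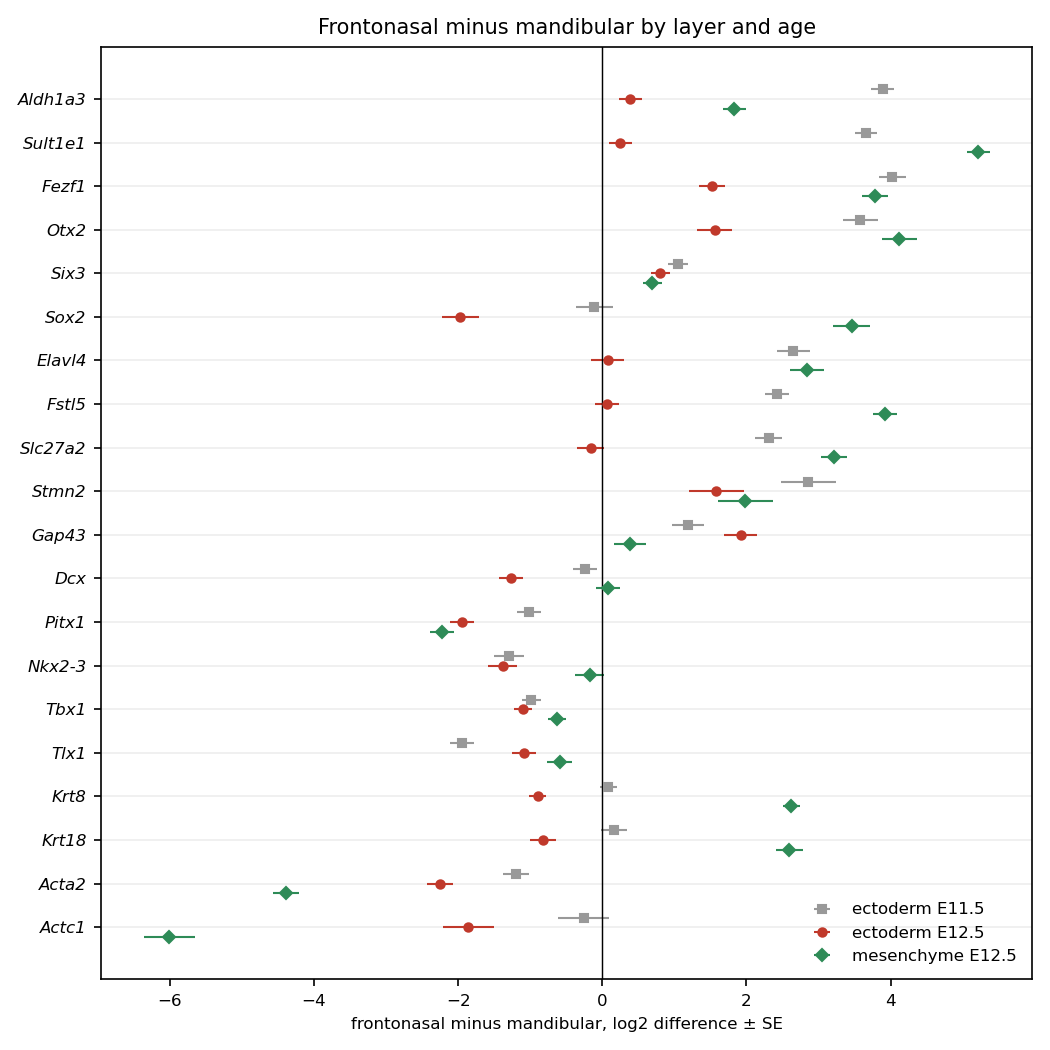
Frontonasal minus mandibular log2 difference (x axis, error bars are the SE of the limma fit) for 20 genes in ectoderm at E11.5 and E12.5 and in mesenchyme at E12.5, chosen after their values were seen. Aldh1a3 stands far right of 0 only outside E12.5 ectoderm, where it is 0.39, and Sox2 is left of 0 in E12.5 ectoderm and right of 0 in mesenchyme.

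On the mandibular side, some regulators of the oral region were higher. Pitx1, a homeobox gene of the lower jaw and mouth, read 8.41, 8.16 and 8.01 in frontonasal and 10.17, 10.16 and 10.10 in mandibular ectoderm, with a difference of -1.95 ± 0.17 (adjusted p = 5.61e-11). It was intermediate in maxillary ectoderm, at 9.14 to 9.40. Nkx2-3 differed by -1.38 ± 0.21, Tbx1, the T-box gene of pharynx and tooth, by -1.10 ± 0.13, and Tlx1 by -1.08 ± 0.17. Of 22 oral and pharyngeal regulators 8 were lower and 3 higher in frontonasal ectoderm, against 11.7% lower and 6.79% higher among all symbols. Without frontonasal array 3 these were 7 and 0, against 5.15% of all symbols lower, and with the block 5 and 0, against 1.92% lower.

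Jaw homeobox genes split by gene. Barx2 read 6.71, 6.8 and 6.74 against 8.29, 8.27 and 8.16 (difference -1.49 ± 0.12, adjusted p = 4.87e-12), and Barx1, a marker of the molar field, differed by -0.87 ± 0.19. Irx2 was lower by 1.0 (log2 difference -1.0 ± 0.13) and Irx3 higher by 0.72 ± 0.08. Hand2, the regulator of the lower jaw mesenchyme, did not pass in ectoderm (-0.19 ± 0.23, adjusted p = 0.588). Of 25 genes 7 were higher and 4 lower in ectoderm, against 6.79% higher and 11.7% lower among all symbols. With the block these were 3 and 3, against 1.22% and 1.92%. In mesenchyme 3 were higher and 16 lower, where 12.0% of symbols were higher and 11.1% lower. Hox genes, which mark levels behind the face, were low. Hoxc5 read 4.67, 4.74 and 5.4 against 7.10, 6.54 and 6.2 (-1.68 ± 0.17, adjusted p = 4.60e-09), and Hoxa5 differed by -1.07 ± 0.18. In all 4 of 10 tested Hox genes were lower and 0 higher, against 11.7% lower among all symbols. With the block 2 were lower, against 1.92%.

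Retinoic acid genes were split between the sides. Rdh10, the dehydrogenase that starts retinoic acid synthesis from retinol, read 9.72, 9.72 and 9.85 in frontonasal and 8.05, 8.24 and 8.12 in mandibular ectoderm, higher by 1.63 ± 0.10 (adjusted p = 6.91e-15). In mesenchyme its order was the reverse, at 9.02 to 9.24 against 9.31 to 9.63, and the ectoderm difference exceeded that of mesenchyme by 1.93 ± 0.14. Crabp1, which binds retinoic acid in the cytoplasm, was higher by 1.35 ± 0.15. Rarb, a receptor gene that retinoic acid induces, was lower, at 6.22, 6.12 and 6.17 against 7.99, 7.82 and 7.79 (-1.70 ± 0.11, adjusted p = 3.02e-14). Dhrs3, which returns retinaldehyde to retinol, was lower as well (-1.40 ± 0.11, adjusted p = 8.17e-12). Of 14 genes 4 were higher and 3 lower, against 6.79% higher and 11.7% lower among all symbols. With the block these were 4 and 2, against 1.22% and 1.92%.

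Of 43 WNT pathway genes, 15 were higher and 2 lower in frontonasal ectoderm, against 6.79% higher and 11.7% lower among all symbols, with a list median of 0.34 log2. Dkk4, a secreted WNT antagonist of placodes, read 7.62, 7.60 and 7.26 in frontonasal and 6.31, 6.4 and 6.21 in mandibular ectoderm, higher by 1.19 ± 0.16 (adjusted p = 1.42e-06). Dkk3, a divergent member of its family, was higher by 1.00 ± 0.11, Notum, which inactivates WNT ligands, by 0.97 ± 0.10 in one probe set, and Nkd1, an intracellular feedback inhibitor, by 0.82 ± 0.13. A second Notum probe set was not called (0.18 ± 0.16, adjusted p = 0.439). The ligand Wnt5a was higher by 0.82 ± 0.12, the secreted inhibitor Wif1 by 0.63 ± 0.19 and the membrane inhibitor Apcdd1 by 0.62 ± 0.15, while the receptor Fzd1 was lower (-0.69 ± 0.11). Without frontonasal array 3 the counts for the list were 11 and 1, against 4.05% higher and 5.15% lower among all symbols. With the block they were 6 and 0, against 1.22% and 1.92%. Leaving out both arrays numbered 3 gave 8 and 1, against 3.45% higher and 4.52% lower among all symbols. At E11.5 3 were higher and 1 lower, and 9 rose and 2 fell in the test of the change, against 1.99% and 5.02% of all symbols.

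In the lists of other signals fewer members were called. Bmp4 read 7.91, 7.83 and 7.73 against 6.47, 7.27 and 6.96 (0.92 ± 0.13, adjusted p = 2.92e-06), and Bmp2 was higher by 0.83 ± 0.19 but not called with the block (adjusted p = 0.0942). Fst, the activin and BMP antagonist follistatin, was lower (-0.84 ± 0.12). Fgf9, an epithelial FGF of tooth development, read 7.73, 7.75 and 7.34 against 8.87, 8.72 and 8.82 (-1.20 ± 0.14, adjusted p = 1.01e-07). Fgf8, which patterns the early jaw, did not pass (-0.04 ± 0.15, adjusted p = 0.866), nor did Shh (0.40 ± 0.17, adjusted p = 0.105). In these lists 5 of 30 BMP, 3 of 30 FGF, 3 of 14 hedgehog and 0 of 20 Notch genes were higher, and 3, 4, 0 and 3 were lower, against 6.79% higher and 11.7% lower among all symbols. The FGF and Notch counts, and the lower BMP count, lay near these shares. With the block 3, 0, 1 and 0 were higher and 1, 2, 0 and 1 lower, against 1.22% and 1.92% of all symbols. Cdon, a hedgehog co-receptor, was higher by 0.74 ± 0.08. Among 28 dental and placode genes 9 were higher and 6 lower, including Cxcr4 at 1.14 ± 0.16 and Lgr6 at 0.90 ± 0.15. With the block, 4 and 2 of these were called, against the same 1.22% and 1.92%. Robo2, a Slit receptor of axon guidance, read 10.22, 10.09 and 10.09 against 8.75, 9.02 and 8.84 (1.26 ± 0.09, adjusted p = 1.76e-12), and Nrp2, a semaphorin receptor, was higher by 1.03 ± 0.13.

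**Figure D4:**
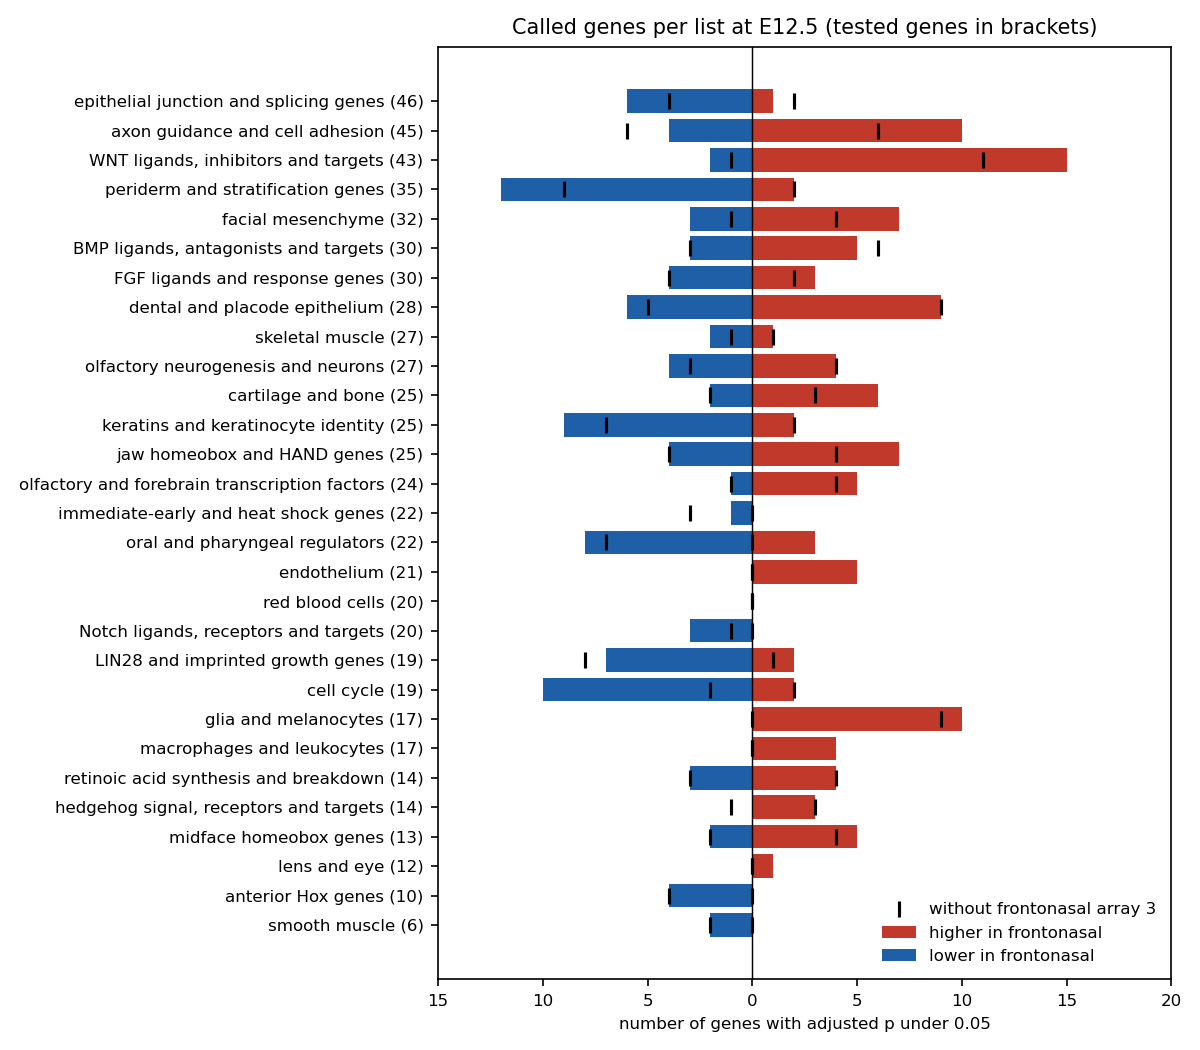
Number of genes (x axis) past an adjusted p of 0.05 in each of 29 lists, higher in frontonasal ectoderm to the right and lower to the left, with tested genes in brackets; black ticks give the counts without frontonasal array 3. Glia and melanocyte genes have 10 higher and 0 lower, and cell cycle genes go from 10 lower to 2 without that array.

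Some genes of stratifying epithelium were lower in frontonasal ectoderm. Dsc3, the desmosomal cadherin desmocollin 3, read 8.76, 8.85 and 7.24 in frontonasal and 10.75, 10.61 and 10.38 in mandibular ectoderm, a difference of -2.30 ± 0.31 (adjusted p = 1.42e-06), or -1.77 without frontonasal array 3. Serpinb5, the epithelial serpin maspin, read 4.47, 4.17 and 3.88 against 6.8, 6.48 and 5.97 (-2.24 ± 0.19, adjusted p = 3.44e-11). Krt6a, a keratin of periderm and oral epithelium, read 5.10, 5.84 and 5.59 against 7.44, 7.07 and 6.88 (-1.62 ± 0.17, adjusted p = 7.84e-09). Maxillary ectoderm, at 4.91 to 5.31 for Krt6a, was below both. Krt6a has near-identical relatives that its probes may also read.

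Of 25 keratin and keratinocyte genes 9 were lower, 2 higher and 14 not called, with Krt15 at -1.23 ± 0.19, Krt17 at -1.01 ± 0.22 and Krt8 at -0.90 ± 0.12. Of 35 periderm and stratification genes 12 were lower, 2 higher and 21 not called, including Upk1b at -1.13 ± 0.17 and Gata3 at -0.76 ± 0.13. Among all symbols 11.7% were lower. Leaving out frontonasal array 3 gave 7 lower keratin genes and 9 lower periderm genes, against 5.15% of all symbols lower. The block gave 6 of each, against 1.92%. Without both arrays numbered 3 there were 5 and 8, against 4.52% of all symbols lower. Some general epithelial genes did not follow, though the general epithelial keratins Krt8 and Krt18 were both called lower. Krt14, a basal keratin, read 11.66, 11.69 and 11.45 against 11.80, 11.66 and 11.74, and Epcam differed by -0.19 ± 0.28 (adjusted p = 0.653). Krt7 was higher in frontonasal ectoderm by 0.64 ± 0.13, though not called with the block. In the junction list 6 of 46 genes were lower, a share near the 11.7% of all symbols, with Dsg2 at -1.09 ± 0.21. Gsdmc, a gasdermin of epithelia, read 4.45, 4.31 and 3.99 against 6.28, 6.41 and 5.81 (-1.92 ± 0.12, adjusted p = 3.02e-14).

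**Figure D5:**
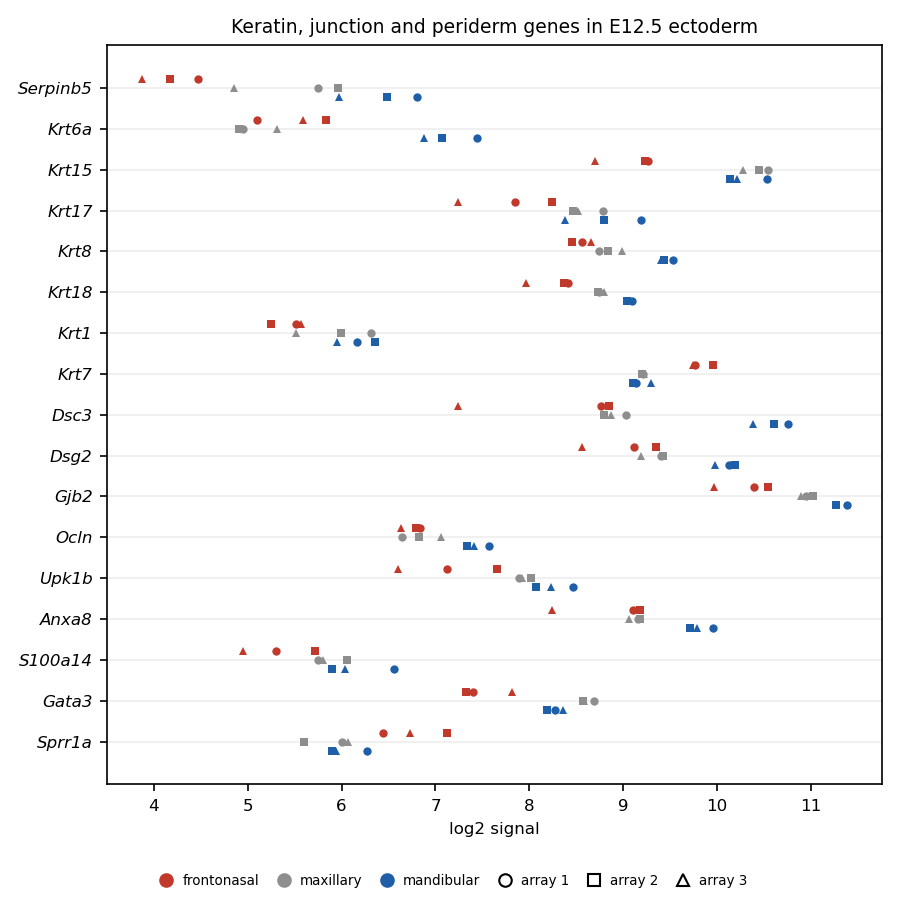
Log2 signal (x axis) of 17 keratin, junction and periderm genes in E12.5 ectoderm, 1 symbol per array, chosen after their values were seen. Mandibular arrays lie to the right of frontonasal arrays except for Krt7 and Sprr1a, and frontonasal array 3 (triangle) is low for Dsc3, at 7.24.

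Some contractile and imprinted genes were higher on the mandibular side in both layers. Acta2, smooth muscle actin, read 6.18, 6.38 and 6.85 in frontonasal and 8.88, 8.53 and 8.75 in mandibular ectoderm (-2.25 ± 0.18, adjusted p = 8.39e-12), and Tagln differed by -1.20 ± 0.12 but did not pass in mesenchyme (-0.29, adjusted p = 0.12). Actc1, the cardiac actin also made by embryonic skeletal muscle, read 6.51, 6.72 and 6.84 against 8.89, 7.66 and 9.09 (-1.86 ± 0.35, adjusted p = 0.000314). In mandibular mesenchyme Actc1 read 12.47 to 12.62. There 26 of 27 skeletal muscle genes were higher than in frontonasal mesenchyme, against 11.1% of all symbols. In ectoderm 2 of 27, Actc1 and the embryonic myosin gene Myh3, were higher on the mandibular side, against 11.7% of all symbols. In ectoderm 24 of the 27 did not pass, among them Ttn and Neb, at -0.02 ± 0.12 and -0.12 ± 0.12. Whether mandibular muscle tissue enters the ectoderm value of Actc1 was not tested.

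The imprinted noncoding RNA Rian read 4.62, 5.25 and 5.68 in frontonasal and 7.39, 7.13 and 7.60 in mandibular ectoderm (-2.19 ± 0.25, adjusted p = 5.50e-08). Its neighbours Dlk1 and Meg3, of the same imprinted cluster, were lower by 1.27 and 1.0 (log2 differences -1.27 ± 0.15 and -1.0 ± 0.15). Igf2, at 12.23, 12.26 and 12.13 against 12.07, 12.11 and 12.16, did not pass. Of 19 genes of the LIN28 and imprinted list 7 were lower and 2 higher, against 6.79% higher and 11.7% lower among all symbols. With the block 4 were lower and 0 higher, against 1.92% and 1.22%. In mesenchyme 15 were lower, against 11.1% of all symbols. Amot, a junction-associated angiomotin, read 7.47, 7.43 and 7.31 against 8.92, 8.94 and 8.84, and its difference of -1.50 ± 0.10 changed by only 0.03 ± 0.14 from E11.5. Cell cycle genes were called lower in 10 of 19 cases, in 2 without frontonasal array 3 and in 0 with the block. The lower shares of all symbols were 11.7%, 5.15% and 1.92%. The mean of the cell cycle genes was 8.78 on frontonasal array 3 against 9.18 and 9.20 on the other frontonasal arrays. Jun, an immediate-early gene, was not called with all arrays (-1.43 ± 0.54, adjusted p = 0.0669) but was called without frontonasal array 3 (-2.43, adjusted p = 0.000532). Without both arrays numbered 3 its difference was -1.75 (adjusted p = 0.0102). It read 6.96, 6.82 and 9.88 against 8.78, 8.49 and 10.68.

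Across all calls, the change from E11.5 to E12.5 passed in 696 probe sets (4.81%), with the frontonasal minus mandibular difference rising in 1.38% and falling in 3.43%. The difference between layers passed in 2280 (15.8%), the ectoderm value lying above the mesenchyme value in 6.71% and below it in 9.05%. The E11.5 and E12.5 ectoderm groups share no arrays. Of the 55 probe sets at least 2-fold higher in frontonasal ectoderm at E12.5, 27 (49.1%) were also called higher at E11.5, which is 3.4% of the E11.5 calls in that direction, and 0 were called lower. In all 5.49% of probe sets were called higher and 3.22% lower at E11.5. Of the 98 at least 2-fold lower, 55 (56.1%) were called lower at E11.5 and 4 higher. In mesenchyme 20 of the 55 and 43 of the 98 were called in the same direction, and 6 and 16 in the opposite one, where 8.82% of all probe sets were called higher and 7.92% lower.

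Rtl3, a gene derived from a retrotransposon, showed a narrowing gap on the mandibular side. It read 8.01, 7.48 and 7.57 in mandibular ectoderm at E11.5 and 5.73, 5.75 and 5.28 at E12.5, while it was not detected on any frontonasal array at E12.5. The test of the change with age gave an adjusted p of 6.57e-06, and its size rests on frontonasal signals not above background. Foxa1, a forkhead gene of endoderm and oral epithelium, went from 7.93, 7.68 and 7.54 in mandibular ectoderm to 5.81, 5.77 and 5.87, against frontonasal values of 5.42 to 6.11 at E12.5 (change 1.67 ± 0.24, adjusted p = 6.83e-06). Dmrt2 and Eya4 moved the other way. Dmrt2, a doublesex-related factor, went from 7.53, 7.30 and 7.69 to 5.53, 6.07 and 5.72 in frontonasal ectoderm, while mandibular ectoderm went from a mean of 7.29 to 7.95 (change -2.39 ± 0.25, adjusted p = 1.73e-08). Eya4, a transcriptional cofactor of sensory placodes, was higher in frontonasal ectoderm at E11.5, at 8.30 to 8.94 against 7.19 to 8.05, and lower at E12.5, at 6.11 to 6.31 against 7.53 to 7.84.

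Maxillary ectoderm was not used to choose the genes, though genes chosen for a wide gap leave more room between the outer means. Its mean lay between the frontonasal and mandibular means for 18 of the 20 named genes most higher in frontonasal ectoderm, all but Otx2 and Fezf1, and for 19 of the 20 most lower, all but Krt6a. Of the higher 20 it was nearer to the mandibular mean in 14, and of the lower 20 in 8. All 40 genes stayed called without frontonasal array 3 and with the replicate block. They were chosen for large gaps on these same arrays, so this is not independent support. Without both arrays numbered 3, 19 of the higher 20 stayed called, all but Stmn2, and 20 of the lower 20.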

How the data were processed

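The authors deposited log2 signals made with RMA in Affymetrix Power Tools 1.91, per the submitters' processing notes, with build mm9. The table holds 28944 probe sets on 45 arrays in 15 groups of 3. The authors' deposited detection p-values, whose header names apt 1.8.0, counted a probe set as detected under 0.05. Gene symbols came from their deposited model table of q-values and name 9398 probe sets (8452 symbols unchanged, 853 updated and 93 kept as given). Precision is limited by the number of arrays, and the 6 compared detected 22204 to 24874 probe sets.

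limma 3.58.1 in R 4.3.3 fitted 15 group means to the 14472 probe sets whose variance over all arrays exceeded the median of 0.0414. P-values were adjusted by Benjamini-Hochberg over all of them, with a threshold of 0.05. The change with age and the difference between layers were tested as contrasts of the same fit. The procedure was tested on simulated data. Where 0 of 3 arrays on the lower side detected a probe set, the fold is given as a lower bound. Lists use 1 probe set per symbol. Tables were read in Python 3.11.15 (pandas 2.3.3, numpy 2.4.6) and figures drawn in matplotlib 3.10.9. Promoters come from a RefSeq table of build GRCm38.p6.

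Named genes are the 20 largest called differences in each direction whose arrays do not overlap, up to 8 called members of each of 29 lists (the 2 largest differences where fewer than 2 passed), and the 10 largest in each direction for age and for layer. Genes printed outside that rule, such as Epcam, Krt14, Hand2, Fgf8, Shh, Igf2 and Jun, were chosen after their values were seen. Some genes that the rule names are not reported here, though counts include them. The comparison and the lists were chosen with earlier results of these data known. Same-numbered frontonasal and mandibular arrays deviated from their group means together, with correlations of 0.236, 0.305 and 0.547, so the numbers were treated as pairs. Arrays numbered 1 and 2 also correlated across numbers, at 0.308 and 0.34, and only those numbered 3 correlated best with their own number on both sides. Leaving out both arrays numbered 3 and the block within the 6 arrays were added after seeing the data. No batch or scan day is named in the labels.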

Additional observations from a re-analysis of the deposited data

Results flagged for a closer look

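The frontonasal minus mandibular difference in ectoderm changed between E11.5 and E12.5 in limma's test of the change, with 200 probe sets rising and 496 falling. The named rises were Dct by 2.82, Pmel by 2.04, Slc7a11 by 2.02, Rtl3 by 1.97, Hey2 by 1.90, Zeb2 by 1.73, Mitf by 1.70, Foxa1 by 1.67, Prrx2 by 1.64 and Prdm1 by 1.59 log2. The named changes downward were Aldh1a3 at -3.50, Sult1e1 at -3.41, Pcp4 at -2.65, Elavl4 at -2.58, Fezf1 at -2.51, Atp8b4 at -2.48, Slc27a2 at -2.47, Ebf2 at -2.41, Dmrt2 at -2.39 and Fstl5 at -2.35. Rtl3, Sult1e1 and Atp8b4 were undetected in at least 1 of the groups compared, so their values are not exact sizes.

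The difference also depended on the layer at E12.5, where 971 probe sets had a higher and 1309 a lower difference in ectoderm than in mesenchyme. The higher ones named were Actc1 at 4.15, Myh3 at 3.91, Meox1 at 3.51, Tnnc1 at 3.45, Sfrp4 at 3.38, Gpr50 at 3.37, Dct at 3.34, Neb at 3.14, Klhl41 at 2.98 and Ttn at 2.95. Except for Dct, these had mesenchyme values that were higher on the mandibular side, as for the sarcomere gene Neb at 7.58 to 8.0 against 4.47 to 4.62. The lower ones named were Sox2 at -5.43, Sult1e1 at -4.97, Fstl5 at -3.85, Krt8 at -3.52, Cldn6 at -3.49, Krt18 at -3.42, Slc27a2 at -3.38, Foxc1 at -3.24, Fads2b at -3.22 and Ano1 at -3.22. Meox1, Gpr50 and Sult1e1 were undetected in at least 1 of these groups, and their values are likewise not exact sizes.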

How the results depend on the processing

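For frontonasal against mandibular ectoderm at E12.5, the 2112 calls (738 higher, 1374 lower) became 169 (64 and 105) with only the 6 arrays in the fit, 1061 (359 and 702) with the 21 ectoderm arrays, 897 (345 and 552) without both arrays numbered 3 and 358 (120 and 238) with the replicate block within the 6 arrays. Array centring gave 427 higher. With the replicate block over all 45 arrays the count was 2057. Leaving out 1 array at a time gave 1017 to 3574 calls, 401 to 1404 higher, 602 to 2170 lower and 133 to 236 at least 2-fold. The lowest total came without frontonasal array 3, and without mandibular array 1 or 2 it was 1112 or 1270. Without frontonasal array 1 or 2 it was 3128 or 3574. For the change with age, 696 calls (200 and 496) became 193 (36 and 157, with 127 at least 2-fold) with only the groups compared, 375 (89 and 286) with the ectoderm arrays and 1381 (432 and 949) with array weights. Leaving out 1 array gave 505 to 900, 136 to 232 higher, 349 to 671 lower and 178 to 292 at least 2-fold. For the layers, 868 were lower with only the groups compared, and leaving out 1 array gave 1876 to 2682, 766 to 1165, 1066 to 1517 and 613 to 797. The causes were not tested. No named gene reversed. Counting each named gene once per setting, 466 results of the main comparison lost the call, 11 gained it and 2687 kept their status. For the change with age 14 lost the call and 446 kept their status. Hey2, Zeb2 and Prrx2 lost the change with age under some settings. Counts per list and setting moved beyond a set factor in 236 cases and stayed within it in 808. Signals near background, as for Tyrp1, limit the folds.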
